A study of Mus musculus with 6 samples.

Results

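Phlda1, Phlda2 and Phlda3, the 3 genes of the pleckstrin homology-like domain family A, were examined in livers of a mouse model of nonalcoholic steatohepatitis (NASH) in which lipophagy had been switched on in hepatocytes. Members were taken by symbol, 3 of the 24346 gene symbols measured, and all 3 passed the filter on low values that left 11493 genes for testing. The family was chosen because Phlda1 was among the few genes whose difference between the groups passed adjustment in these same livers, so the contrast of Phlda1 is given as a description. Its interval and p-values, here and under other processing, come from the values that chose it and are no independent test.

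Control mice received an adeno-associated virus of serotype 8 (AAV8) for LDTS-LIR mut, a lipid droplet-targeting sequence (LDTS) joined to an inactive LC3-interacting region (LIR), and lipophagy mice received the virus for LDTS-eLIR, whose engineered region recruits LC3 on autophagosomes to lipid droplets. Both constructs were driven by the liver-specific thyroxine-binding globulin promoter, and both groups carried the LDTS of perilipin 1, which by itself favours lipid storage. All mice were males of the C57BL/6 strain according to the labels (C57BL/6J in the study's methods), 8 weeks old when they were placed on CDAHFD, a high-fat diet that lacks choline and supplies defined L-amino acids in place of protein, for 6 weeks. They were injected once, returned to normal chow and analysed 2 weeks later, with 3 livers per group measured by RNA sequencing. The values are FPKM (fragments scaled to transcript length and to all mapped fragments), so that levels of genes of unlike length can be set side by side. Their sums differed between the groups, and values under another scaling are given where they bear on a result.

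The members share a small pleckstrin homology-like domain, a fold that can bind membrane phosphoinositides. Phlda1, also called TDAG51, is induced by growth factor signalling through the kinase ERK and by stress of the endoplasmic reticulum, and mice that lack it become obese and accumulate fat in the liver. Phlda2 is an imprinted gene expressed from the maternal allele that restrains growth of the placenta. Phlda3 is a target of the tumour suppressor p53, and its protein competes with the kinase Akt for phosphoinositides and so restrains Akt.

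Phlda1 lay on chromosome 10 at chr10:111506286-111508645 on the plus strand (mm10, with positions from the GENCODE annotation of GRCm38). Phlda2 lay at chr7:143501545-143503150 on the minus strand, within an imprinted cluster. Phlda3 lay at chr1:135766119-135769136 on the plus strand. The genes had the same plan, since the main transcript of each had 2 exons and its coding bases were all in 1 of them. The coding sequence was 1215 bases in Phlda1, 432 bases in Phlda2 and 375 bases in Phlda3, and the single intron was 411, 240 and 1583 bases long, respectively.

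Phlda1 had no entry among the promoter windows used and is not shown. The 250 bases upstream of the RefSeq start sites of Phlda2 and Phlda3 (GRCm38.p6) are given. Each is written 5′ to 3′ on the strand of its gene, and capitals mark basal promoter motifs found on either strand. The motif of the TATA box was TATAAA. That of the CCAAT box is spelled by its name. The GC box, bound by the factor Sp1, was searched as GGGCGG. The Phlda2 window spanned chr7:143502525-143502774 on the minus strand and the Phlda3 window chr1:135765835-135766084 on the plus strand.
Phlda2: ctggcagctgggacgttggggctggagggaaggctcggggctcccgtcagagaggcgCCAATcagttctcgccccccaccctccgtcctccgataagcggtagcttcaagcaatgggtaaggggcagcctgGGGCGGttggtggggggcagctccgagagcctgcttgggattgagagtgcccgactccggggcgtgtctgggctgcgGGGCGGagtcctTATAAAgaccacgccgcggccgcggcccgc
Phlda3: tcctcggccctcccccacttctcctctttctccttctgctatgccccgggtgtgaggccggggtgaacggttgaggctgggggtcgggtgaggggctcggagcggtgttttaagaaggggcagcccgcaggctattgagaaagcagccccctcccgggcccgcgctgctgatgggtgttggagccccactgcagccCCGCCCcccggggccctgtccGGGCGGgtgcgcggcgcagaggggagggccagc

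Both windows were rich in G and C, at 68.8% in Phlda2 and 71.2% in Phlda3, against a median of 52.4% over 32851 mouse promoter windows of the same length. The Phlda2 window held a TATA box that began 30 bases upstream of the start, GC boxes at 42 and 119 bases and a CCAAT box at 193 bases. The Phlda3 window held no TATA box and no CCAAT box, but GC boxes at 33 bases and, on the opposite strand, at 54 bases. TATA boxes were found in 12.4% of all windows, CCAAT boxes in 33.8% and GC boxes in 32.7%. Motifs tied to the known regulation of the family were absent from both windows, namely the p53 decamer (7.13% of all windows), the CArG box bound by serum response factor (1.47%), the AP-1 site TGANTCA (6.75%) and the cyclic AMP response element TGACGTCA (1.55%). A match is a run of letters only and was not examined for binding.

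Phlda1 was the most abundant member and was far lower in the lipophagy livers. Its level was 42.1, 57.7 and 69.3 FPKM in control livers 1, 2 and 3, and 9.25, 12.9 and 13.1 FPKM in lipophagy livers 1, 2 and 3. The groups were well apart, as the lowest control liver was 3.2-fold above the highest lipophagy liver. The mean was 56.4 ± 13.7 FPKM in control livers against 11.8 ± 2.19 FPKM in lipophagy livers (SD, n = 3 each), 4.79-fold or 79.1% lower. On the scale of log2(FPKM + 1) the difference was -2.15 with a standard error of 0.19 and a 95% interval of -2.60 to -1.71, the 5th largest fall among the 11493 genes. The adjusted p by which Phlda1 was chosen was 0.0198 (limma with Benjamini-Hochberg adjustment), and 0.0261% of tested genes passed this threshold. Those genes were Cish (adjusted p = 0.00172), an inhibitor of cytokine receptor signalling, Phlda1 and Foxa1 (adjusted p = 0.046), a forkhead transcription factor of hepatocytes, and the next gene outside the threshold was Ajuba (adjusted p = 0.071, limma). Foxa1 lost this call with a filter at 0.1 FPKM (adjusted p = 0.0692, limma) and with any liver but lipophagy liver 3 left out (0.0511 to 0.207), and without a filter both Cish and Foxa1 lost it (0.176). In whole liver, fewer cells of a type and less RNA per cell cannot be told apart.

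Phlda1 also moved far down the order of all genes in a liver. It ranked 1484, 1236 and 1076 among the 24346 symbols in control livers 1, 2 and 3, so that 93.9% to 95.6% of symbols lay below it. It ranked 4541, 3695 and 3626 in lipophagy livers 1, 2 and 3, with 81.3% to 85.1% of symbols below it. The spread within a group was moderate, with coefficients of variation of 24.2% and 18.6% in the control and lipophagy livers. The estimated number of fragments behind each value was large, at 2030 to 4250 in control livers and 396 to 586 in lipophagy livers. Leaving out control liver 3 gave a log2 difference of -1.99 with an adjusted p of 0.0547, and leaving out lipophagy liver 1 gave -2.0 with an adjusted p of 0.064 (limma), so that the passing of the threshold rested on these livers. With all genes kept regardless of level, the adjusted p of Phlda1 was 0.204.

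Phlda3 was the second member in abundance, and its levels were also lower in every lipophagy liver. It was measured at 9.56, 10.6 and 9.98 FPKM in control livers 1, 2 and 3 and 6.26, 5.69 and 4.05 FPKM in lipophagy livers 1, 2 and 3. The control livers were close together, the lipophagy livers were more spread, and the groups did not overlap, with a gap of 1.53-fold between the lowest control and the highest lipophagy liver. The mean was 10.05 ± 0.529 FPKM against 5.33 ± 1.15 FPKM (SD, n = 3 each), 1.88-fold lower. The log2 difference was -0.82 with a standard error of 0.13 and a 95% interval of -1.13 to -0.51, the 39th largest fall of the tested genes. Its adjusted p of 0.0937 (limma) missed the threshold of 0.05. Phlda3 passed it in 3 of 17 other ways of processing. Among these were scaling to the same total (adjusted p = 0.0248, limma) and quality weights (adjusted p = 0.0456, limma). Estimated fragments were 325 to 438 in control livers and 129 to 192 in lipophagy livers.

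Phlda2 was barely expressed and did not separate the groups. It was measured at 0.731, 1.48 and 1.45 FPKM in control livers 1, 2 and 3 and 0.75, 1.17 and 1.22 FPKM in lipophagy livers 1, 2 and 3. Liver 1 of each group was the lowest, and the range of the lipophagy livers lay within that of the control livers. The mean was 1.22 ± 0.426 FPKM against 1.04 ± 0.256 FPKM (SD, n = 3 each). The log2 difference was -0.11 with a 95% interval of -0.48 to 0.26 and an adjusted p of 0.725 (limma). Only 10.8 to 30.1 estimated fragments lay behind each value, and differences within this interval could not be told from 0. The parts of counting error and of spread between livers in it were not separated.

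**Figure D1:**
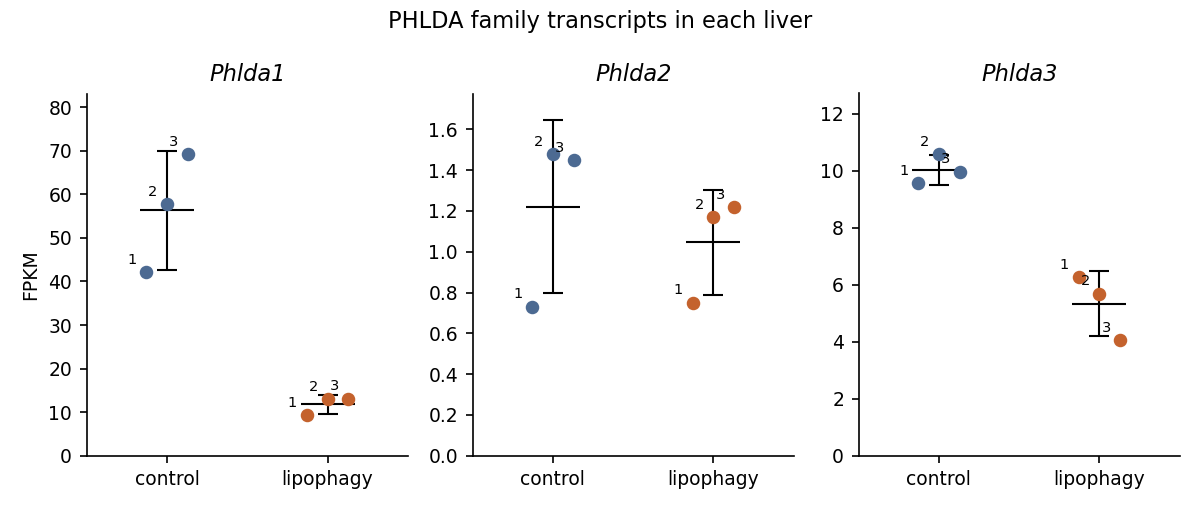
FPKM of Phlda1, Phlda2 and Phlda3 (vertical axes from 0, a separate scale per gene) in 3 control and 3 lipophagy livers, with points numbered by liver and black lines for the mean and SD. Phlda1 and Phlda3 do not overlap between the groups (56.4 against 11.8 FPKM and 10.05 against 5.33 FPKM on average), whereas the ranges of Phlda2 overlap.

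The mean of each of the 3 members was lower in lipophagy livers, as was that of 45.5% of the tested genes. Across the family, 2 of 3 members did not overlap between the groups and were lower in lipophagy livers, where 10.8% of the genes compared did so and 15.3% were apart in the other direction. Phlda1 was chosen from this contrast, so only Phlda3 and Phlda2 add to it. The order Phlda1 over Phlda3 over Phlda2 held in each of the 6 livers. The summed level of the family was 52.4, 69.8 and 80.7 FPKM in control livers 1, 2 and 3 and 16.3, 19.8 and 18.4 FPKM in lipophagy livers 1, 2 and 3.

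The make-up of this sum follows from the contrast by which Phlda1 was chosen and is given only to describe the family. Phlda1 made up 80.3% to 85.8% of the family sum in control livers and 56.9% to 71.4% in lipophagy livers. The ratio of Phlda1 to Phlda3 was 5.59 ± 1.28 in control livers and 2.33 ± 0.887 in lipophagy livers (SD, n = 3 each). The ratio of Phlda3 to Phlda2 overlapped, at 6.87 to 13.1 in control livers and 3.33 to 8.35 in lipophagy livers. The members differed in how they varied within a group, since in lipophagy livers Phlda3 was lowest in liver 3, where Phlda1 was highest.

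The direction of Phlda1 and Phlda3 held under each of 17 other ways of processing. The log2 difference of Phlda1 ranged from -2.36 to -1.99. The adjusted p that chose it stayed below 0.05 in 14 of 17 fits of the same values, which is a description of that choice. That of Phlda3 ranged from -1.02 to -0.66 and passed in 3 of 17. The summed FPKM of all genes was 622696 to 681138 in control livers and 709993 to 782392 in lipophagy livers, and scaling to the same total gave -2.36 for Phlda1 and -1.02 for Phlda3.

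**Figure D2:**
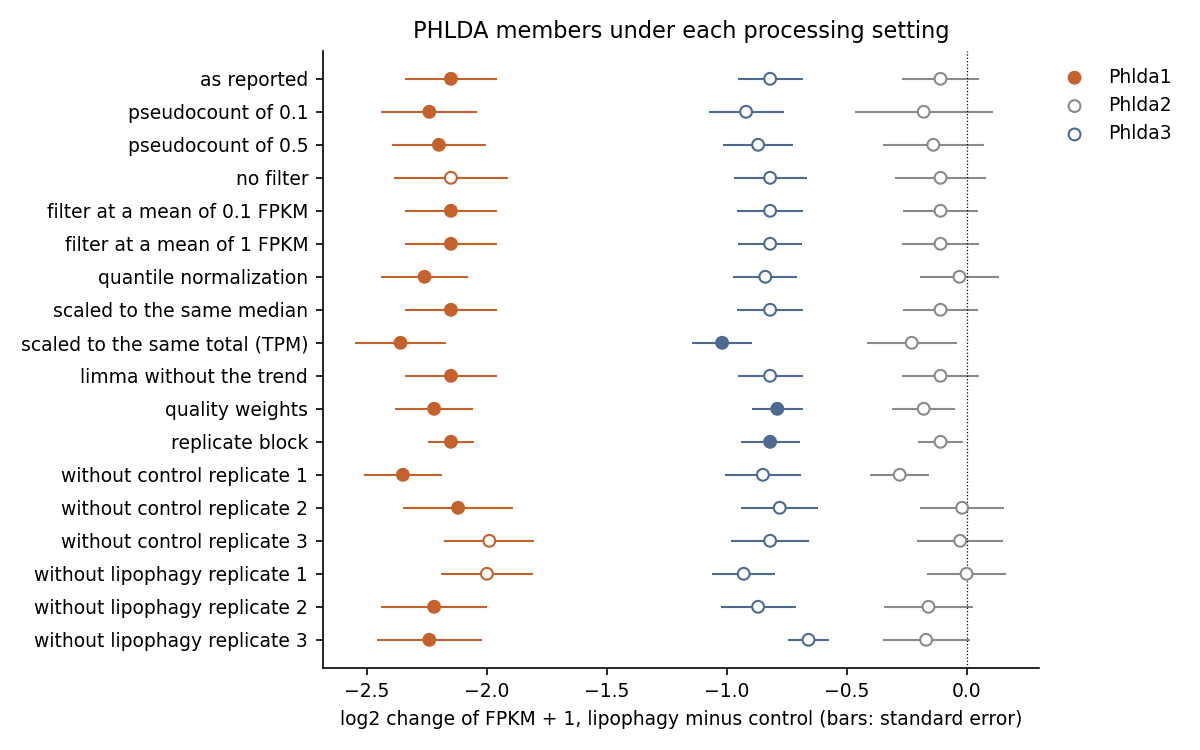
Log2 difference of FPKM + 1 between lipophagy and control livers (horizontal axis) for the members under the reported processing and 17 alternatives (rows), with bars for the standard error and filled points for an adjusted p below 0.05. Phlda1 stays between -2.36 and -1.99 and Phlda3 between -1.02 and -0.66, while Phlda2 stays near 0.

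Depth differed between livers, and control liver 3 was the deepest. Estimated depth was 23.8 to 34.1 M fragments in control livers and 22.9 to 24.8 M in lipophagy livers, and Spearman's rho between livers was 0.979 to 0.982 across genes, which are not independent replicates. Hepatocyte markers were abundant, with a summed level of 59100 to 65900 FPKM in control livers against 72000 to 93800 FPKM in lipophagy livers, and 7 of 8 were higher on average in lipophagy livers. The sum was 164 to 199 against 139 to 195 FPKM for stellate cells (6 of 8 markers lower), 414 to 574 against 411 to 536 for macrophages (4 of 7 lower) and 24.6 to 30.3 against 28.6 to 45.8 for sinusoidal endothelium (5 of 7 higher). It was 18.8 to 32 against 16.1 to 18.7 FPKM for neutrophils (3 of 3 lower) and 4.79 to 5.97 against 3.8 to 4.5 for lymphocytes (2 of 3 lower). It was 137 to 247 against 92 to 196 for bile duct cells (5 of 5 lower) and 92.5 to 103 against 103 to 253 for erythroid cells (4 of 4 higher). All these sums and counts are of FPKM as deposited, and the sums follow the most abundant markers. The total FPKM of all genes was itself higher in lipophagy livers (709993 to 782392 against 622696 to 681138). With livers scaled to the same total, 77.4% of all tested genes were lower. Of the 45 markers tested in these lists, 9 were lower and 5 higher at an unadjusted p below 0.05 (7.97% and 11.5% of all tested genes), 0 tested markers passed the adjusted threshold (limma), 0 markers were at 0 in all livers, and their part in the levels of the PHLDA genes was not tested.

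Phlda1 is often read as part of a group of transcripts that follow ERK activity. None of the other tested genes of that group passed the threshold after adjustment. The group was listed with earlier results of these data known. Of its 9 other genes, 5 were expressed highly enough to test. Of these, 4 were lower and 1 higher in lipophagy livers (45.5% and 54.5% of the genes tested). At an unadjusted p below 0.05 there were 0, beside 7.97% lower and 11.5% higher over all tested genes. After adjustment there were 0 (lowest adjusted p = 0.374, limma), beside 0.0261% of all tested genes. All 5 overlapped between the groups, whereas 10.8% of all genes compared were apart and lower and 15.3% apart and higher. A count of 0 among 5 genes is not far from these shares. The median log2 difference of the 5 genes was -0.02, against 0.02 over all tested genes. With livers scaled to the same total, all 5 were lower (77.4% of all tested genes), 1 of them at an unadjusted p below 0.05 (21.8% of all tested genes). The median was then -0.19, beside -0.13 over all tested genes. Dusp6, a phosphatase that switches ERK off, differed most, at 10.9, 16.7 and 14.5 FPKM in control livers against 8.27, 13.3 and 11.6 FPKM in lipophagy livers 1, 2 and 3. Its log2 difference was -0.32 with a standard error of 0.19, and -0.14 without lipophagy liver 1. The feedback inhibitor Spry4 and the cyclin Ccnd1 both had log2 differences of -0.02, the transcription factor Etv5 had -0.14 and the ephrin receptor Epha2 had 0.10. Spry4 turned positive with quantile normalization, and Epha2 negative with scaling to the same total or with quality weights. Of the remaining genes of the group, Spry2, Dusp4, Epha4 and Etv4 were below a mean of 0.5 FPKM and were not tested.

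Among the immediate early genes that growth factors switch on within minutes through ERK, most were lower in lipophagy livers. Of 23 tested, 19 were lower and 4 higher, beside 45.5% and 54.5% of all tested genes. At an unadjusted p below 0.05, 10 were lower and 1 higher, against 7.97% and 11.5% of all tested genes in the 2 directions, and 0 passed adjustment (lowest adjusted p = 0.071, limma). The median log2 difference was -0.23. With livers scaled to the same total the background itself moved, with 21.8% of all tested genes lower and 2.05% higher at an unadjusted p below 0.05, beside 15 lower and 0 higher of these 23. Their median was then -0.39, beside -0.13 over all tested genes. Myc, the growth-promoting transcription factor, stood beside Phlda1 in size, at 11.6, 6.14 and 15.1 FPKM in control livers against 1.63, 2.11 and 1.2 FPKM in lipophagy livers. Its groups did not overlap, and the log2 difference was -2.11 with a standard error of 0.27 (adjusted p = 0.071, limma). The adjusted p of Myc was 0.0248 with scaling to the same total and 0.00725 without control liver 2 (limma). Egr1, a zinc finger factor with a very short-lived response, varied widely within groups, which overlapped, at 4.58, 29.6 and 12.3 FPKM against 1.76, 10.1 and 3.42 FPKM. Atf3, a stress-induced factor, was apart between the groups with a log2 difference of -0.54 (adjusted p = 0.156, limma). Fos had -0.39 and the ERK pathway inhibitor Spred1 had -0.23, both with overlapping groups. The largest positive value was 0.90 for Klf10, where lipophagy liver 3 alone was at 26.3 FPKM and the other 5 livers at 2.81 to 8.20 FPKM.

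Upstream of ERK, the growth factors and receptors showed smaller values. Of 17 tested ligands and receptors, 12 were lower and 5 higher, beside 45.5% and 54.5% of all tested genes. At an unadjusted p below 0.05, 6 were lower and 2 higher, beside 7.97% and 11.5% of all tested genes, and 0 passed adjustment (lowest adjusted p = 0.111, limma), with a median log2 difference of -0.18. With livers scaled to the same total, 14 were lower and 3 higher, beside 77.4% lower over all tested genes. At an unadjusted p below 0.05, 9 were then lower and 0 higher, beside 21.8% and 2.05% of all tested genes. The median was -0.34, beside -0.13 over all tested genes. Fgf21, a hepatokine released under metabolic stress, had the lowest value, at 3.52, 3.61 and 2.34 FPKM in control livers against 1.41, 1.58 and 0.986 FPKM in lipophagy livers. The groups of Fgf21 were apart, with a log2 difference of -0.83 and a standard error of 0.15 (adjusted p = 0.111, and 0.0443 with scaling to the same total, limma). The epidermal growth factor receptor Egfr had the highest value, 0.29, at 78.7, 80.1 and 80.7 FPKM against 82.6, 106 and 107 FPKM. This value was 0.15 with quantile normalization and 0.11 with scaling to the same total. The FGF receptor Fgfr4 differed by 0.01 and its co-receptor Klb by 0.20, and Igf1, the main growth factor that liver secretes, by 0.10, all with overlapping groups. Fgfr4 and Igf1 turned negative with quantile normalization or scaling to the same total.

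Phlda1 is also induced by stress of the endoplasmic reticulum, and genes of the PERK and ATF4 branch of that response were split in direction. Of 17 tested, 6 were lower and 11 higher, beside 45.5% lower and 54.5% higher over all tested genes. At an unadjusted p below 0.05 there were 3 in each direction, beside 7.97% lower and 11.5% higher over all tested genes, and 0 after adjustment (lowest adjusted p = 0.111, limma). The median log2 difference was 0.17. With livers scaled to the same total, 7 were lower and 10 higher, beside 77.4% lower over all tested genes. At an unadjusted p below 0.05, 6 were then lower and 2 higher, beside 21.8% and 2.05% of all tested genes. The median was 0.01, beside -0.13 over all tested genes. Atf4, the transcription factor at the centre of the branch, had a log2 difference of 0.19, its partner Ddit3 (CHOP) had 0.40 and the pseudokinase Trib3 had 0.22, all with overlapping groups. Scaled to the same total, Atf4 was 0.0068, Ddit3 0.23 and Trib3 0.054, and without control liver 1, Ddit3 was 0.094 and Trib3 0.091. Gdf15, a secreted stress hormone, had the highest value, at 9.31, 17.5 and 7.75 FPKM in control livers against 27.7, 25.8 and 20.8 FPKM in lipophagy livers. Every lipophagy liver was above every control liver for Gdf15, with a log2 difference of 1.11 and a standard error of 0.26 (adjusted p = 0.134, and 0.0426 without control liver 2, limma). Fgf21, also a target of this branch, had the lowest value.

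**Figure D3:**
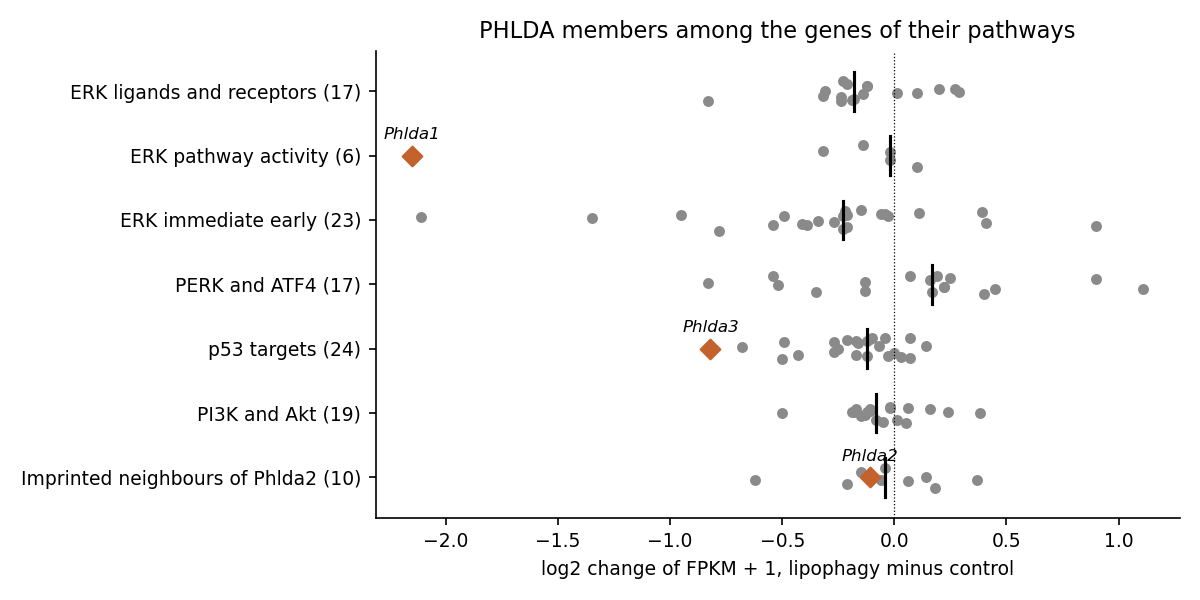
Log2 difference of FPKM + 1 between lipophagy and control livers (horizontal axis) for the tested genes of 7 lists (number tested in parentheses), with grey points for genes, black bars for the median without the member and diamonds for the PHLDA members. Phlda1, chosen for its value of -2.15, is plotted with the 5 other genes of its ERK activity group, and Phlda3 at -0.82 is the lowest of the p53 targets on this scale.

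Phlda3 had the lowest value of the p53 targets on the scale of log2(FPKM + 1), which understates differences of weakly expressed genes. By the ratio of mean FPKM the death receptor gene Tnfrsf10b was 2.29-fold lower and Eda2r, another receptor gene, 2.15-fold lower, beside 1.88-fold for Phlda3. These 2 genes, named after their values were seen, had control means of 0.857 and 1.22 FPKM. Of the 23 other tested genes of this list, which include Trp53 itself, 18 were lower and 5 higher, beside 45.5% and 54.5% of all tested genes. At an unadjusted p below 0.05, 8 were lower and 0 higher, beside 7.97% and 11.5% of all tested genes, and 0 passed adjustment (lowest adjusted p = 0.124, limma). The median log2 difference was -0.12. With livers scaled to the same total, 23 of 23 were lower (77.4% of all tested genes). At an unadjusted p below 0.05 there were then 12 lower (21.8% of all tested genes). The median of the 23 was -0.29, beside -0.13 over all tested genes. Cdkn1a (p21), which arrests the cell cycle, came next to Phlda3 on the log2(FPKM + 1) scale, at 16.2, 18.6 and 14.0 FPKM in control livers against 10.6, 7.9 and 10.9 FPKM in lipophagy livers. The groups of Cdkn1a were apart, with a log2 difference of -0.68 and a standard error of 0.14 (adjusted p = 0.124, and 0.046 with scaling to the same total, limma). Trp53, which encodes p53 itself, had a log2 difference of -0.16 with overlapping groups. Mdm2, the ubiquitin ligase that degrades p53, had -0.11, Ccng1 had -0.17 and the pro-apoptotic gene Bax had -0.17, and of these only Bax was apart between the groups. The highest value was 0.14, for the stress-induced Sesn1, which was -0.01 when livers were scaled to the same total.

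The genes of the PI3K and Akt pathway, which the Phlda3 protein restrains, had small values on average in FPKM. Of 19 tested, 13 were lower and 6 higher (45.5% and 54.5% of the genes tested), and 0 reached an unadjusted p below 0.05 (7.97% lower and 11.5% higher over all tested genes), with a lowest adjusted p of 0.256 (limma) and a median log2 difference of -0.08. With livers scaled to the same total, 17 were lower and 2 higher, beside 77.4% lower over all tested genes. At an unadjusted p below 0.05, 5 were then lower, beside 21.8% of all tested genes. The median was -0.22, beside -0.13 over all tested genes. The kinases Akt1 and Akt2 had log2 differences of 0.05 and 0.16. Akt2 was apart between the groups, at 27.0, 27.5 and 28.4 FPKM against 30.9, 31.7 and 30.2 FPKM, but these positive values turned negative for both kinases when livers were scaled to the same total. Of transcripts that insulin acting through Akt holds down, Pdk4 had -0.05, Irs2 had -0.19 and Igfbp1, with the highest value of the list, had 0.38. The lowest was -0.50 for Trib1, a pseudokinase, and its groups overlapped as well.

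In the imprinted cluster of Phlda2, 9 other genes were tested, of which 5 were lower and 4 higher, with a median log2 difference of -0.04, 2 lower and 1 higher at an unadjusted p below 0.05 (7.97% and 11.5% of all tested genes) and 0 past adjustment (lowest adjusted p = 0.207, limma). H19, a maternally expressed non-coding RNA, had the lowest value, at 0.576, 1.28 and 2.16 FPKM in control livers against 0.335, 0.633 and 0.434 FPKM in lipophagy livers. The groups of H19 overlapped through control liver 1. Tssc4 had the highest value, 0.37, and 0.20 with scaling to the same total. Under that scaling 7 of the 9 were lower and 2 higher, beside 77.4% lower over all tested genes. At an unadjusted p below 0.05, 3 were then lower, beside 21.8% of all tested genes. The median was -0.13, the same as over all tested genes. Cdkn1c, a maternally expressed inhibitor of the cell cycle, was as weakly expressed as Phlda2, at 0.954 ± 0.102 FPKM in control livers against 0.764 ± 0.197 FPKM in lipophagy livers (SD, n = 3 each). Igf2, the fetal growth factor of the cluster, had a mean of 0.0994 FPKM over the livers and was not tested, and Ascl2, Th and Ins2 were listed at 0 in each liver.

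None of the tested genes beside the members passed adjustment. Of the 18 genes that flank the members, 3 on each side, 9 were tested, of which 2 had an unadjusted p below 0.05 (19.5% of all tested genes) and 0 an adjusted p below 0.05 (lowest adjusted p = 0.213, limma). Among the 9 tested neighbours 3 were apart between the groups, beside 10.8% lower and 15.3% higher over all genes compared. Beside Phlda1, the ciliary gene Bbs10 had a log2 difference of -0.10, the nucleosome assembly gene Nap1l1 had -0.09 and Krr1, needed for ribosome assembly, had 0.08. With scaling to the same total they were -0.24, -0.27 and -0.058, beside a median of -0.13 over all tested genes. The nearest entries, Gm5176, 4933440J02Rik and Gm20758, were below the filter on low values and were not tested. Beside Phlda2, the transporter gene Slc22a18 was lower in each lipophagy liver (-0.21, and -0.39 with scaling to the same total). Nap1l4 was higher in each (0.18, but 0.0062 with that scaling). Groups overlapped for Cars (0.14, but -0.027 with that scaling) and Cdkn1c (-0.15, and -0.28 with that scaling). The entries 4933417O13Rik and Mir7064 were listed at 0. Beside Phlda3, Csrp1, which encodes a LIM domain protein, was lower in each lipophagy liver with -0.31, a smaller value than the -0.82 of Phlda3. With scaling to the same total Csrp1 was -0.50 and Phlda3 -1.02. Lad1 had -0.22 with overlapping groups. Nav1, Tnni1 and Tnnt2 were below the filter on low values, although Nav1 was apart between the groups at 0.364 ± 0.00952 against 0.239 ± 0.0665 FPKM (SD, n = 3 each), and Mir1231 was listed at 0.

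**Figure D4:**
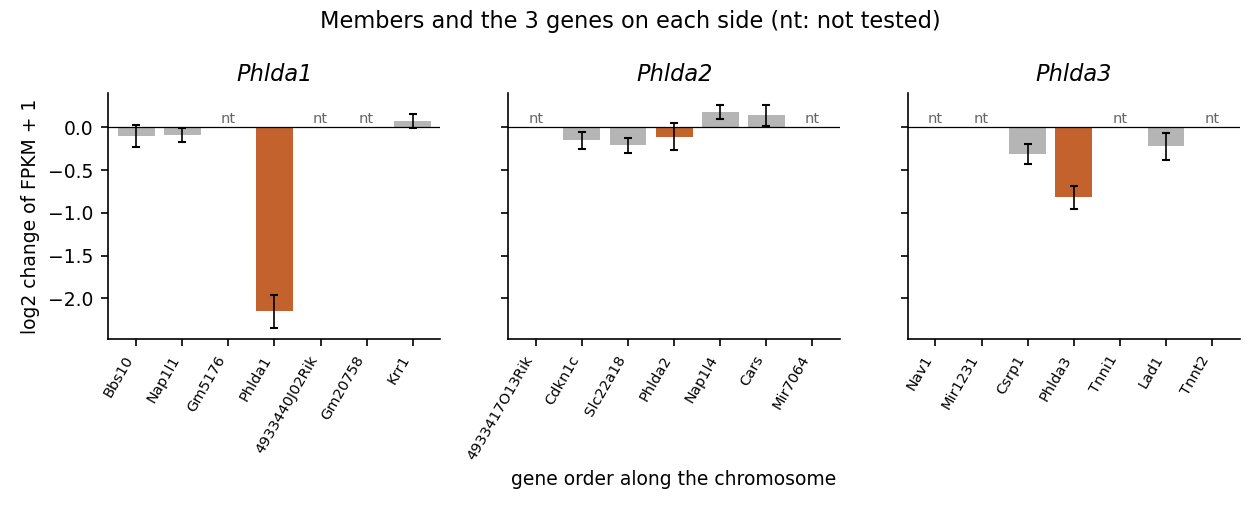
Log2 difference of FPKM + 1 between lipophagy and control livers (vertical axis) for each member (orange) and the 3 genes on each side in chromosome order (grey), with bars for the standard error and nt for genes not tested. In the reported fit Phlda1, chosen for its value of -2.15, lies among neighbours between -0.10 and 0.08, and the neighbours of Phlda3 have values of -0.31 and -0.22.

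The genes whose profile over the 6 livers was most like that of Phlda1 were found by the root mean square difference of log2(FPKM + 1) from each gene's own mean. The nearest was Socs3 (0.32), a feedback inhibitor of cytokine signalling, followed by the forkhead gene Foxq1 (0.42), the lipid droplet gene Cidec (0.42), Myc (0.44), Cish (0.47), the apolipoprotein gene Apoa4 (0.53), the guanylate-binding protein gene Gbp11 (0.54) and the mitochondrial carrier gene Slc25a30 (0.56). The median over 11488 genes was 1.12. Since all points share the same 6 livers and Phlda1 was chosen for its contrast, genes with a large fall are near it by construction.

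Socs3, picked for its likeness to Phlda1, was at 8.78, 13.8 and 28.4 FPKM in control livers 1, 2 and 3. In lipophagy livers 1, 2 and 3 it was at 2.67, 3.75 and 4.31 FPKM. In both genes liver 1 was the lowest and liver 3 the highest of each group, which the measure of likeness favours. Cidec, which promotes the fusion of lipid droplets, was at 5.76, 6.61 and 6.29 FPKM in control livers against 0.818, 1.61 and 2.72 FPKM in lipophagy livers. Its lipophagy livers had the order of Phlda1, which the measure also favours. Cish, at 15.8, 10.2 and 13.1 FPKM against 0.796, 0.934 and 1.4 FPKM, had another order of control livers and a larger fall, with a log2 difference of -2.77. Among the tested genes Phlda3 was the 33rd nearest to Phlda1 (0.75), and Phlda2 was at place 1671 (1.03).

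**Figure D5:**
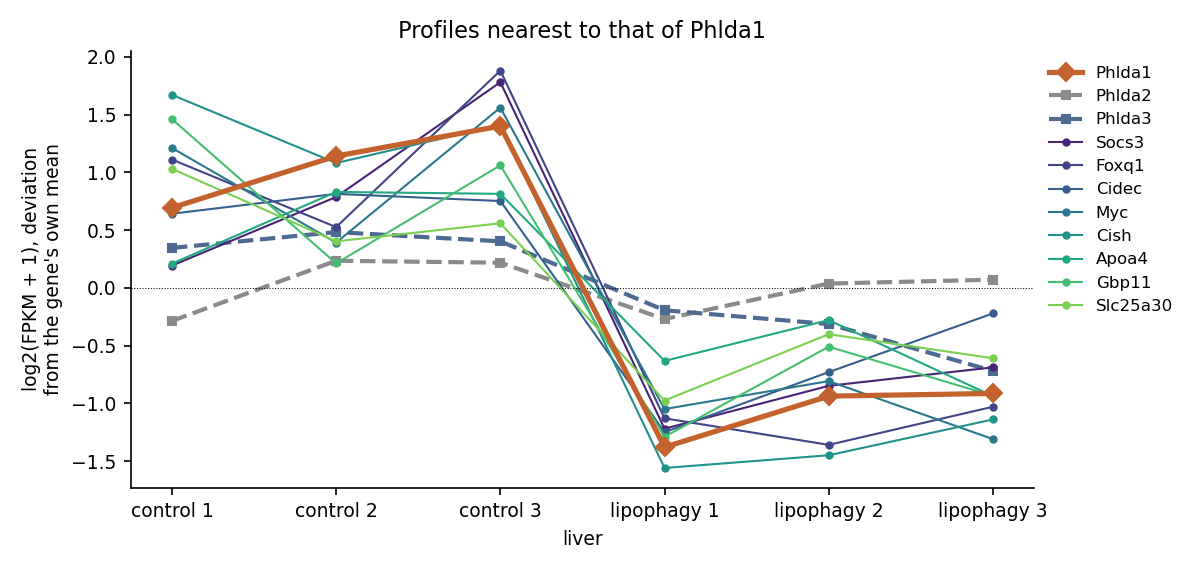
Deviation of log2(FPKM + 1) from the mean of each gene (vertical axis) in the 6 livers (horizontal axis), with lines joining the values of a gene, for Phlda1 (thick orange), the 8 genes nearest to it and the other members (dashed). The nearest genes are above their mean in each control liver and below it in each lipophagy liver, and Phlda3 has the same signs over a smaller range.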

How the data were processed

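Liver total RNA was prepared as stranded poly(A) libraries and sequenced as paired ends. The authors deposited FPKM values for 24346 gene symbols in 6 livers. The submitters' processing notes name TopHat2 2.0.13, Bowtie2 2.2.3, SAMtools 0.1.19, Cufflinks 2.2.1 and mm10. The annotation is not given in the sources used here. FPKM are scaled to transcript length and mapped fragments rather than counts, and a count model was therefore not applied.

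Values were taken as log2(FPKM + 1), so differences of low genes are understated. Genes averaging 0.5 FPKM or more over the livers, 11493 in all, were fitted with limma 3.58.1 (R 4.3.3; moderated variance with trend, two-sided, no covariates) and adjusted by Benjamini-Hochberg over all of them. The p-values measure the spread between these livers. The procedure was tested on simulated data. Depth was estimated from the step of 1 fragment in low values, with transcript lengths less 150 bases, and covers counting error only. Of the symbols, 27 had been turned into dates. Positions came from GENCODE M21 and promoters from RefSeq, and motifs were chosen after the values were seen. Tables and plots used pandas 2.3.3, numpy 2.4.6 and, for drawing, matplotlib 3.10.9 under Python 3.11.15.

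Groups came from the labels. The members and gene lists were chosen with earlier results of these data known. Genes named were the members, the ERK activity group, genes fixed by role, the 3 genes on each side of a member, the 8 nearest profiles, genes with an adjusted p below 0.05, and the largest rise and fall of each pathway list (marker lists are given by sums and counts). A result that the rule calls for is left out here. Ajuba, just outside the threshold, Tnfrsf10b and Eda2r were named after their values were seen. Alternatives were other pseudocounts, filters and scalings, limma without the trend, quality weights, a replicate block and each liver left out in turn.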

Additional observations from a re-analysis of the deposited data

How the results depend on the processing

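The direction of each PHLDA member held under 17 alternatives, and the log2 difference of Phlda2 ranged from -0.28 to -0.0015 without passing the threshold. Phlda1 was -2.15 without a filter on low values (adjusted p = 0.204, limma; the cause was not tested) and -2.35 to -1.99 with 1 liver left out. Phlda3 passed the threshold at -1.02 with scaling to the same total (TPM), -0.79 with quality weights and -0.82 with the replicate block. The number of genes called, 3 in the reported fit, was 1 without a filter, 104 with TPM, 39 with quality weights, 43 with the replicate block and 1 to 11 with 1 liver left out (1 without control liver 3, 11 without lipophagy liver 3).

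Scaling moved the balance of all genes. Of genes with an unadjusted p below 0.05, 916 were lower and 1327 higher as reported (40.8% lower), 899 and 745 with quantile normalization (54.7% lower) and 2506 and 236 with TPM (91.4% lower), where the median of all tested genes was -0.13.

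For 51 named genes besides the members, 834 of 862 values kept their direction and 28 in 12 genes reversed. Of these named genes, 11 gained a call under at least 1 alternative. There were 9 with TPM (Apoa4, Cdkn1a, Cidec, Fgf21, Foxq1, Gbp11, Myc, Slc25a30 and Socs3), 4 with quality weights (Apoa4, Cidec, Foxq1 and Slc25a30) and 7 with the replicate block (Apoa4, Cidec, Egr1, Fgf21, Foxq1, Myc and Socs3), where Egr1 was -1.35 (adjusted p = 0.0117, limma). Without control liver 2, Foxq1, Gbp11, Gdf15 and Myc were called, and without lipophagy liver 3, Cidec. Cish and Foxa1 lost the call without a filter (adjusted p = 0.176 for each, limma), and Foxa1 also with a filter at 0.1 FPKM (0.0692) and with 1 liver left out, other than lipophagy liver 3 (0.0511 to 0.207).

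With quantile normalization the reversed values were Fgfr4 (-0.04), Igf1 (-0.073), Akt1 (-0.04), Pdk4 (0.028) and Spry4 (0.055). With TPM they were Fgfr4 (-0.16), Igf1 (-0.087), Akt1 (-0.13), Akt2 (-0.018), Epha2 (-0.045), Krr1 (-0.058), Cars (-0.027) and Sesn1 (-0.01), and with quality weights Epha2 (-0.088). With 1 liver left out, Fgfr4 ranged from -0.058 to 0.12, Pdk4 from -0.27 to 0.13, Irs2 from -0.35 to 0.023, Spry4 from -0.25 to 0.11, Ccnd1 from -0.11 to 0.054 and Epha2 from -0.27 to 0.39. Other values that moved by over 1.5 times with 1 liver left out kept their sign, among them Dusp6 (-0.48 to -0.14), Ddit3 (0.094 to 0.58), Trib3 (0.091 to 0.39), Egr1 (-1.97 to -0.74), H19 (-0.87 to -0.37), Igfbp1 (0.027 to 0.67), Klf10 (0.25 to 1.3) and Trib1 (-0.7 to -0.25).

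The labels do not say whether livers of the same number were handled together, and this was not tested. Deviations of same-numbered livers from the group means correlated at 0.25, 0.23 and -0.06 across genes. Control liver 3 was nearest to lipophagy liver 2 (0.25). With 3 livers per group these values cannot settle a pairing, as deviations within a group sum to 0. Phlda2 rested on 10.8 to 30.1 estimated fragments in a liver.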
